A study of Mus musculus with 12 samples.

Results

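The Polycomb genes described here are *Ezh2*, *Eed*, *Suz12*, *Jarid2* and *Mtf2* of Polycomb repressive complex 2 (PRC2), and *Ring1*, *Rnf2*, *Kdm2b*, *Pcgf6* and *Rybp* of Polycomb repressive complex 1 (PRC1). Their splicing was followed through LeafCutter clusters, which are sets of introns that share a splice site. All clusters that were tested and carried 1 of the 10 symbols were taken, with all their introns. This gave 28 of the 7263 tested clusters, with 96 of 20437 introns, in 8 of the 10 genes. *Ring1* and *Rybp* had no cluster in the table, so nothing can be said here about their splicing.

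Newly made RNA of female mouse embryonic stem cells (mESCs, 129S x Cast) was labelled for 30 min with 4-thiouridine (4sU), a uridine analogue, and the labelled RNA was purified and sequenced. In all samples METTL3, the catalytic subunit of the m6A writer, carried FKBP12(F36V) at its C-terminus, and *Xist* could be induced with doxycycline. The 6 Ctrl samples received no dTAG-13 (0 h), and the 6 dTAG samples received it for 3 h before labelling, which sends the tagged protein to degradation. Each group drew on a pair of clones named C3 and H5, with 3 replicates per clone, so each clone is 1 edited cell line. The cells were grown on inactivated mouse fibroblasts. The comparison asked which splice choices differ soon after METTL3 is lost.

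Polycomb proteins keep developmental genes silent in mESCs. PRC2 methylates histone H3 and PRC1 ubiquitinates histone H2A, and each complex exists in several forms that share a catalytic core and differ in their accessory subunits. Several of these subunits are made as protein isoforms from alternative first exons, alternative splice sites or cassette exons.

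The use of an intron is given as PSI, the share of the split reads of its cluster that join its ends, as a fraction. PSI is 1 fitted value per group, with no value per sample and no error of its own, and deltaPSI is PSI in dTAG minus PSI in Ctrl. Depth is unknown, since the tables hold no read counts. The p of a cluster comes from LeafCutter's likelihood-ratio test, a chi-square test of a model of the split-read counts across the 12 samples with both clones pooled, and adjusted p values were computed by Benjamini-Hochberg over all tested clusters. Since nothing states that replicates were grown separately, the p-values measure only the spread between these samples. In bulk RNA a different mix of cells and a different splice choice within cells cannot be told apart. Of 10 stem cell markers 7 had a tested cluster (*Nanog*, *Esrrb*, *Klf4*, *Zfp42*, *Sall4*, *Tdgf1* and *Dppa4*), and of 6 fibroblast markers only *Fn1* had one, which says nothing of their levels. The smallest p among the 5 clusters of *Fn1* was 0.0253 in the chi-square test, and whether RNA of the fibroblasts took part in any result was not tested. *Mettl3* had 2 tested clusters with a smallest p of 0.805 in the chi-square test, and the degron acts on the protein, so its RNA does not check the labels.

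The splice sites of the 3 Polycomb clusters with p of at most 0.05 or a deltaPSI of at least 0.05 in size are printed first, because the results turn on them. A 5′ splice site is shown as 3 exon bases and 6 intron bases, and a 3′ splice site as 20 intron bases and 3 exon bases, with the first or last 2 bases of the intron in capitals (build mm10). The 5 alternative 5′ splice sites of *Jarid2* join to 1 shared 3′ splice site, and each is annotated in a different transcript. In *Suz12* the 3′ splice sites compete, and in *Ezh2* the 5′ splice sites compete.
Jarid2 site 1, chr13:44729775-44729783, + strand: cagGTaagg
Jarid2 site 2, chr13:44729933-44729941, + strand: aggGTaaag
Jarid2 site 3, chr13:44730886-44730894, + strand: cagGTagac
Jarid2 site 4, chr13:44730910-44730918, + strand: aagGTttgc
Jarid2 site 5, chr13:44730932-44730940, + strand: tggGTgagc
Jarid2 shared 3′ splice site, chr13:44731693-44731715, + strand: aatttcggatttatttcaAGgcg
Suz12 near 3′ splice site, chr11:80029128-80029150, + strand: tgatctcttgattttgttAGgcc
Suz12 far 3′ splice site, chr11:80029236-80029258, + strand: aatcgtctctatttccacAGtga
Ezh2 upstream 5′ splice site, chr6:47576557-47576565, - strand: tctGTgagc
Ezh2 downstream 5′ splice site, chr6:47576530-47576538, - strand: gagGTtggt

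Splice sites were scored with a weight matrix built from the distinct sites of all tested introns, in bits, where a higher score is closer to the common sequence. *Jarid2* site 1 scored 11.2, and sites 2 to 5 scored 5.78, 5.58, 5.22 and 6.16. The 2 *Suz12* 3′ splice sites scored 7.79 for the near and 7.87 for the far site. The upstream *Ezh2* site scored 2.61 and the downstream site 6.02.

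Pairs of sites that lie at most 15 nt apart are shown in 1 window each, because the sequence shows both choices at once. The capitals mark the first 2 intron bases of each 5′ splice site in *Ezh2* and *Mtf2*, and the last 2 intron bases of each 3′ splice site in *Pcgf6*.
Ezh2, chr6:47551711-47551734, - strand: atcGTaagtgcagttattGTacgt
Mtf2, chr5:108081216-108081228, + strand: cagGCagGTgcta
Pcgf6, chr19:47037318-47037334, - strand: ctttccgtAGgtAGata

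No Polycomb cluster had an adjusted p under 0.05 in LeafCutter's chi-square test, the level reached by 51 of all tested clusters (0.702%). At an unadjusted p of at most 0.05 there were 2 of 28 Polycomb clusters, 1 in *Suz12* and 1 in *Jarid2*, which is 7.14% beside 6.84% of all tested clusters. The Polycomb share was thus near the background. Both genes belong to PRC2, where 2 of 19 clusters were at that level, and PRC1 had 0 of 9. The smallest adjusted p of the 28 was 0.565. Of the 96 introns, 72 had a deltaPSI under 0.02 in size, and 4 had one of at least 0.05. Those 4 include both introns of 1 *Ezh2* pair, whose changes mirror each other. In 32 of the 96 the PSI was under 0.05 in both groups, so their deltaPSI could not reach 0.05. The matching shares over all tested introns were not counted. The median over clusters of the largest absolute deltaPSI was 0.0160 in Polycomb genes and 0.0214 over all tested clusters, and 7.14% of Polycomb clusters and 19.8% of all reached 0.05.

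**Figure D1:**
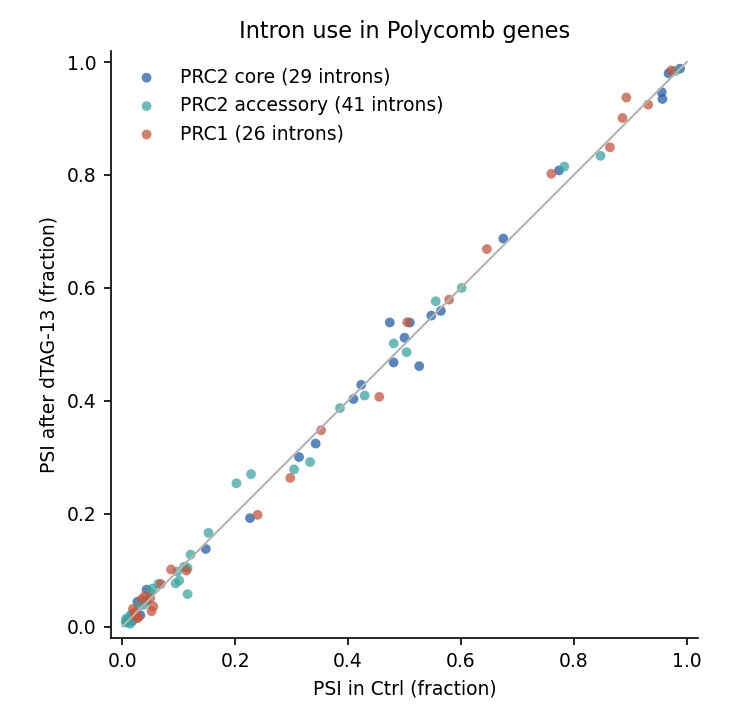
PSI of the 96 introns of Polycomb genes in Ctrl (x axis) and after dTAG-13 treatment (y axis), as fractions, 1 point per intron, coloured by complex, with the line of equal use. The points lie along the line, and the largest distance from it is 0.0648, in Ezh2.

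**Figure D2:**
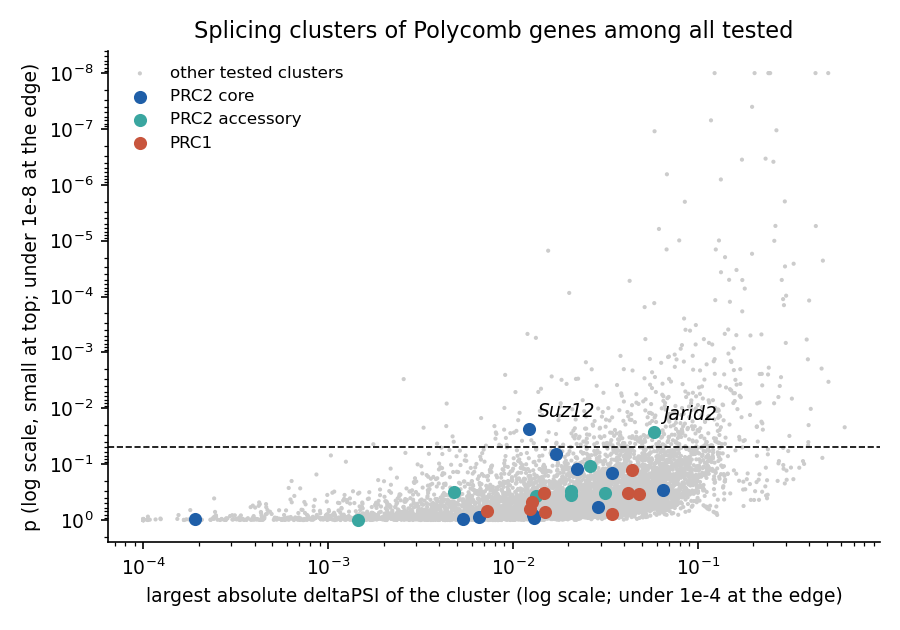
Largest absolute deltaPSI (x axis, fraction, log scale) against p (y axis, log scale, small values at the top) of each tested cluster, with the 28 Polycomb clusters coloured by complex and all others in grey. Points beyond the range are drawn at its edge, the dashed line marks a p of 0.05, and 2 Polycomb clusters, in Suz12 and Jarid2, lie above it.

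*Ezh2*, the methyltransferase of PRC2, had 4 tested clusters on chr6 with 10 introns, all of them annotated in GENCODE vM21. The largest deltaPSI of any Polycomb intron was in intron 3 of 19, at the pair of 5′ splice sites shown above, which lie 27 nt apart in coding sequence. The downstream site (intron between exon bases 47558294 and 47576536) had a PSI of 0.474 in Ctrl and 0.539 in dTAG, and the upstream site (47576563) had 0.526 and 0.461. The more used site was thus the upstream one in Ctrl and the downstream one in dTAG. The deltaPSI of 0.0648 had a 95% interval from -0.0538 to 0.179 and p = 0.287 in the chi-square test, so the order of the sites was not resolved in these samples. The extra 27 nt keep the reading frame and hold no in-frame stop codon.

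The second *Ezh2* pair of 5′ splice sites, 15 nt apart, opens intron 8 of 19. The site that leaves the 15 nt in the mRNA (47547436 to 47551717) had a PSI of 0.0431 in Ctrl and 0.0654 in dTAG. Its deltaPSI was 0.0223 with an interval from -0.00474 to 0.0663 (chi-square p = 0.124), and the upstream site carried over 0.9 of the reads in both groups. The 15 nt also keep the frame.

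Downstream of both pairs, within intron 9 of 19, lies an 82-nt cassette exon (47546749 to 47546830) whose 2 junctions were annotated only in transcripts marked for nonsense-mediated decay, the pathway that removes mRNAs with an early stop codon. Read in frame from the exon before it, the exon held 2 stop codons. Its downstream junction had a PSI of 0.0267 in Ctrl and 0.0438 in dTAG, while its upstream junction had 0.0176 and 0.00946, so the differences at the 2 junctions of the same exon had opposite signs. The skipping junction took 0.956 and 0.947, and the exon was included in 2.27% and 2.74% of junction use (p = 0.0645 in the chi-square test, adjusted p = 0.767). The fourth cluster is a 126-nt cassette exon in frame (47541845 to 47541970). It was included in 74.2% of junction use in Ctrl and 75.8% in dTAG (chi-square p = 0.579).

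*Eed*, which binds methylated histone H3 and stimulates the enzyme, had 3 tested clusters on chr7. A pair of 5′ splice sites 89 nt apart opens intron 10 of 11. The less used upstream site (89955604 to 89956344) had a PSI of 0.226 in Ctrl and 0.192 in dTAG, with a deltaPSI of -0.0343, an interval from -0.0738 to 0.0124 and p = 0.142 in the chi-square test. The 89 nt are not a multiple of 3. A 106-nt exon (89962256 to 89962361) was skipped by an intron absent from GENCODE vM21 with a PSI of 0.0122 in Ctrl and 0.0127 in dTAG, and was included in 97.6% and 97.5% of junction use (chi-square p = 0.967). The remaining cluster holds introns 1 and 2 of the gene, with PSI values of 0.50 and 0.481 for its main introns in Ctrl and 0.512 and 0.468 in dTAG (chi-square p = 0.825). Its 2 rare introns stayed at or under 0.0120 in both groups.

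*Suz12*, the scaffold of the PRC2 core, had 4 tested clusters on chr11 and the smallest p of all Polycomb clusters. Intron 13 of 15 starts at exon base 80025954 and ends at either of the 2 3′ splice sites printed above. The near site (80029148), which is annotated, had a PSI of 0.968 in Ctrl and 0.980 in dTAG. The far site (80029256), absent from GENCODE vM21, had 0.0322 and 0.0199. Its deltaPSI was -0.0122 with an interval from -0.0191 to -0.00198, p = 0.0237 in the chi-square test and adjusted p = 0.565. Use of the far site leaves 108 nt out of the exon, which is a multiple of 3, and these 108 nt held no in-frame stop codon. The scores of both sites differed by under 0.1 bits, while the near site took over 0.95 of the reads in each group.

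The other *Suz12* clusters had close values in both groups. A 69-nt exon (79999057 to 79999125) was included in 91.8% of junction use in Ctrl and 91.2% in dTAG (chi-square p = 0.885), and its skipping is annotated in a protein-coding transcript. A 232-nt exon (80013364 to 80013595) was included in 97.7% and 97.5% (chi-square p = 0.920). A second pair of 3′ splice sites, 64 nt apart at the end of intron 12, gave the far site a PSI of 0.0119 in Ctrl and 0.0117 in dTAG (chi-square p = 0.964).

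*Jarid2*, a cofactor that brings PRC2 to its targets, had 2 tested clusters on chr13 with 8 introns, all annotated. The first is a choice among the 5 first introns that share the 3′ splice site at 44731713. Each is annotated as intron 1 of a different transcript. PSI here does not separate the choice of transcription start from that of splice site, and this was not tested. Site 1 (44729777) had a PSI of 0.228 in Ctrl and 0.270 in dTAG. Site 2 (44729935) had 0.121 and 0.127, and site 3 (44730888) had 0.202 and 0.254. Sites 1 to 3 thus had the higher value in dTAG. Site 4 (44730912) had 0.116 in Ctrl and 0.0574 in dTAG, and site 5 (44730934), the most used in both groups, had 0.333 and 0.291. The deltaPSI was 0.0418, 0.00630, 0.0516, -0.0583 and -0.0413 for sites 1 to 5, with p = 0.0268 in the chi-square test and adjusted p = 0.599 for the cluster as a whole.

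Sites 3 to 5 lie within 46 nt, and the signs of deltaPSI differed among them. Their summed PSI was 0.651 in Ctrl and 0.603 in dTAG. Site 4 is annotated only in a processed transcript without a coding sequence, and the other 4 sites in protein-coding transcripts. Site 1 had the highest score of the 5 and took under 0.3 of the reads. Since the sites belong to different annotated transcripts, score and use are only given side by side. The second cluster is a 142-nt exon (44848280 to 44848421), included in 97.4% of junction use in both groups (chi-square p = 0.999), between introns of 24764 and 25861 nt.

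**Figure D3:**
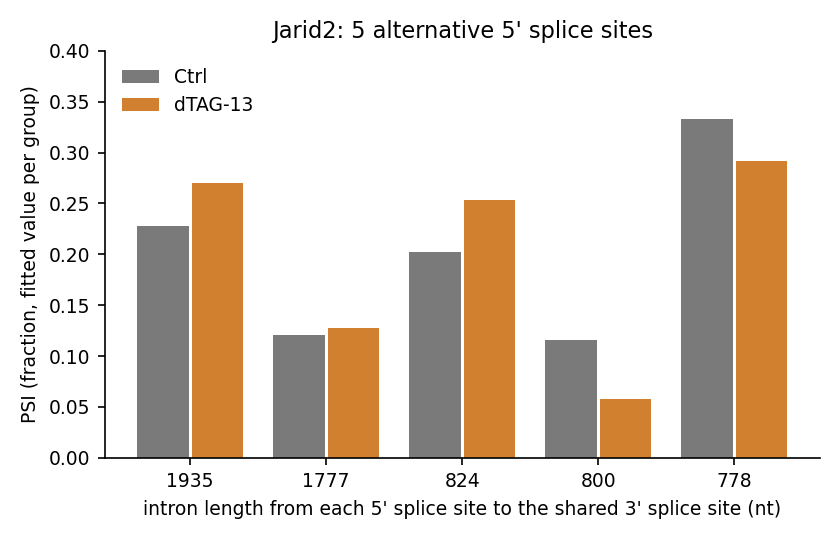
PSI (y axis, fraction) of the 5 alternative 5′ splice sites of Jarid2 in Ctrl (grey) and dTAG (orange), ordered along the gene and labelled with the length of the intron to the shared 3′ splice site in nt. Bars are single fitted values per group without error bars. The 800-nt intron (site 4) has 0.116 in Ctrl and 0.0574 in dTAG.

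*Mtf2*, a Polycomb-like subunit that binds CpG-rich DNA, had 6 tested clusters on chr5 with 33 introns, the most of any Polycomb gene, and 20 of them were annotated. The first cluster held 19 introns, 8 of them annotated, at the start of the gene. Of these, 6 started at a 5′ splice site at 108060863, which lies 4811 nt upstream of the first annotated base of *Mtf2* (108065674), in no gene of GENCODE vM21. Together they had a PSI of 0.447 in Ctrl and 0.434 in dTAG. The 4 introns from the annotated first exon (108065965) together had 0.210 and 0.232. The summed value of the unannotated upstream site was thus the higher in both groups. Its most used intron, to 108080825, had 0.304 in Ctrl and 0.278 in dTAG, the largest difference in the cluster (-0.0261, chi-square p = 0.107).

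Intron 3 of 14 of *Mtf2* starts at either of the 5′ splice sites in the 13-base window above, 4 nt apart. The upstream site begins with GC in place of GT, as in 0.944% of all tested introns, and is the only such intron in the Polycomb genes. The GC site had a PSI of 0.847 in Ctrl and 0.834 in dTAG. The GT site had 0.153 and 0.166, with a deltaPSI of 0.0133, an interval from -0.0146 to 0.0455 and p = 0.369 in the chi-square test. The scores of the sites were close, 3.99 bits for GC and 4.08 bits for GT. The GT site adds 4 nt, which shifts the frame, and its intron is annotated only in a transcript marked for nonsense-mediated decay.

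Another *Mtf2* exon, of 78 nt (108099654 to 108099731), is also annotated only in such a transcript and held 1 in-frame stop codon. It was included in 12.2% of junction use in Ctrl and 10.2% in dTAG (chi-square p = 0.334). A 124-nt exon (108094125 to 108094248) was included in 97.0% and 97.5% (chi-square p = 0.352). A 3′ splice site that adds 31 nt with an in-frame stop codon (intron from 108104318 to 108104395) had a PSI of 0.0204 in Ctrl and 0.0156 in dTAG, with an interval of the difference from -0.0113 to 0.00603 (chi-square p = 0.319). In the last cluster, around the exon that ends at 108104125, the main introns had 0.555 and 0.429 in Ctrl and 0.576 and 0.409 in dTAG (chi-square p = 0.298). None of the 6 *Mtf2* clusters was at p of at most 0.05.

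*Rnf2*, the E3 ligase found in most PRC1 in mESCs, had 1 tested cluster on chr1, in its first intron of 22093 nt. An unannotated 135-nt exon (151483731 to 151483865) was included in 7.30% of junction use in Ctrl and 8.17% in dTAG (chi-square p = 0.713). Its downstream junction had a PSI of 0.0865 and 0.101, and its upstream junction 0.0495 and 0.050. The exon base before it lies in the coding sequence of no protein-coding transcript, so no frame was read.

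*Kdm2b*, which brings variant PRC1 to CpG islands through its zinc finger, had 5 tested clusters on chr5 with 16 introns, 11 of them annotated. Its first intron can start at 2 annotated 5′ splice sites. The less used site (122988467) had a PSI of 0.240 in Ctrl and 0.198 in dTAG, with a deltaPSI of -0.0419, an interval from -0.109 to 0.0480 and p = 0.329 in the chi-square test. This cluster also carried the name *Gm44574*, which has an exon boundary at the shared 3′ splice site. The gene also makes a short form, from a start within the gene, that lacks the demethylase domain. The first intron of the short form (122888754 to 122900149) had a PSI of 0.0343 in Ctrl and 0.0483 in dTAG. The competing intron of the long form (122888754 to 122921385) had 0.298 and 0.263, and the cluster had p = 0.772 in the chi-square test. A downstream intron that both forms share (122883462 to 122888530) took 0.646 and 0.669. The values are thus shares of the whole cluster and not of the choice between the forms.

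A 114-nt *Kdm2b* exon in frame (122881637 to 122881750) had the largest difference among the cassette exons, with 92.3% inclusion in Ctrl and 89.7% in dTAG (chi-square p = 0.335). In another cluster a 5′ splice site known only from a processed transcript (122921905) took a PSI of 0.579 in both groups, and the intron of the long form (122921471 to 122932467) took 0.352 and 0.348 (chi-square p = 0.643). The remaining cluster, 2 3′ splice sites 57 nt apart, gave the unannotated site 0.0275 in Ctrl and 0.0149 in dTAG, with an interval of the difference from -0.0249 to 0.0521 (chi-square p = 0.481).

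*Pcgf6*, which defines a variant PRC1 at germline genes, had 3 tested clusters on chr19. An exon of 18 nt (47042122 to 47042139), the shortest cassette exon of the Polycomb genes, was included in 5.66% of junction use in Ctrl and 3.25% in dTAG (chi-square p = 0.128). Both of its junctions had the lower PSI in dTAG, 0.0519 and 0.0272 upstream and 0.0551 and 0.0357 downstream. The exon keeps the frame and held no stop codon, while both of its introns are annotated only in a transcript marked for nonsense-mediated decay. The 3′ splice sites 4 nt apart in the window above had PSI values of 0.886 and 0.901 for the upstream site, and 0.114 and 0.0991 for the unannotated downstream site. The deltaPSI of the latter was -0.0147 with an interval from -0.0394 to 0.0170 (chi-square p = 0.332). The upstream site scored 9.05 bits and the downstream site 5.87. Another pair, 23 nt apart, gave the unannotated site, which adds an in-frame stop codon, 0.0683 in Ctrl and 0.0755 in dTAG (interval -0.0223 to 0.0534, chi-square p = 0.687).

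**Figure D4:**
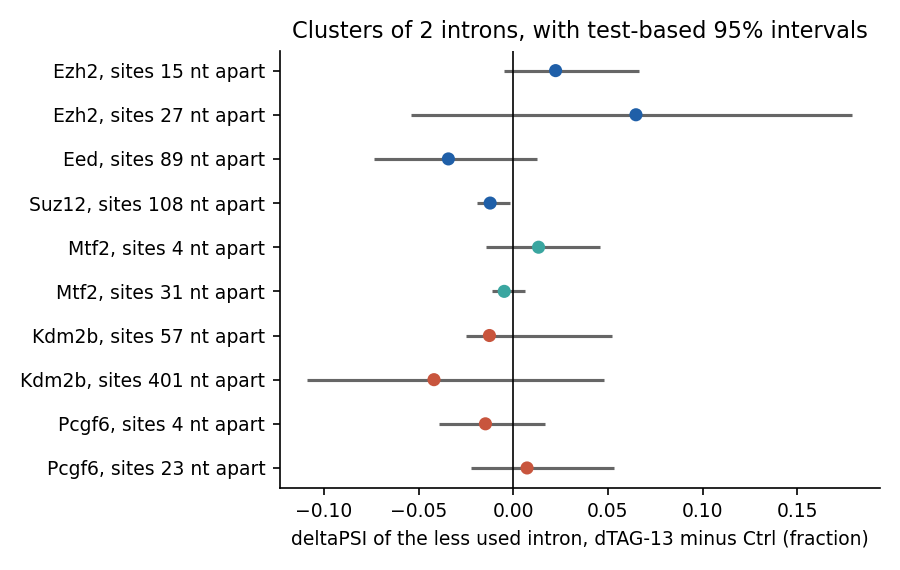
DeltaPSI (x axis, fraction, dTAG minus Ctrl) of the less used intron of 10 Polycomb clusters with 2 introns, with test-based 95% intervals (lines). Points are coloured by complex (blue PRC2 core, teal PRC2 accessory, red PRC1). The interval of 1 of the 10, in Suz12, excludes 0, and the widest, in Ezh2, runs from -0.0538 to 0.179. By construction an interval excludes 0 only where the chi-square p of the cluster is under 0.05, so it is not a second test.

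The intervals differ in what they leave possible. In the *Mtf2* pair 31 nt apart a deltaPSI beyond 0.0113 in size lay outside the interval. In the first *Ezh2* pair values up to 0.179 and in the first *Kdm2b* intron values down to -0.109 lay inside it. A p above 0.05 in these clusters therefore does not show that use was equal.

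The 28 Polycomb clusters comprised 11 cassette exons (39.3%, beside 33.2% of all tested clusters), 7 sets of alternative 5′ splice sites (25.0%, beside 26.3%), 6 sets of alternative 3′ splice sites (21.4%, beside 26.4%) and 4 mixed clusters (14.3%, beside 14.0%). Of the Polycomb introns 71.9% were annotated, beside 74.7% of all. Of the 20 alternative parts that could be read in frame, 4 held a stop codon in every coding transcript read: the 82-nt *Ezh2* exon, the 78-nt *Mtf2* exon, the 31 nt at the *Mtf2* 3′ splice site and the 23 nt in *Pcgf6*. All 4 belonged to the less used form in both groups. Frames were not read over all tested clusters, so no share stands beside these counts.

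Cassette exons of Polycomb genes fell into mostly included and mostly skipped ones. In Ctrl, 6 of 11 were included in over 90% of junction use (54.5%, beside 41.2% of 2411 cassette exons) and 4 in under 20% (36.4%, beside 18.3%). The 126-nt *Ezh2* exon lay between them. Inclusion differed between the groups by a median of 0.576 percentage points in size and by at most 2.57, beside a median of 1.61 over all cassette exons. In Ctrl the junction downstream of the exon had the higher PSI in 9 of 11 Polycomb exons (81.8%, beside 60.3% of all), the exceptions being the 126-nt *Ezh2* and the 114-nt *Kdm2b* exon, and 10 of 11 had the same order of junctions in both groups, the exception being the 124-nt *Mtf2* exon.

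**Figure D5:**
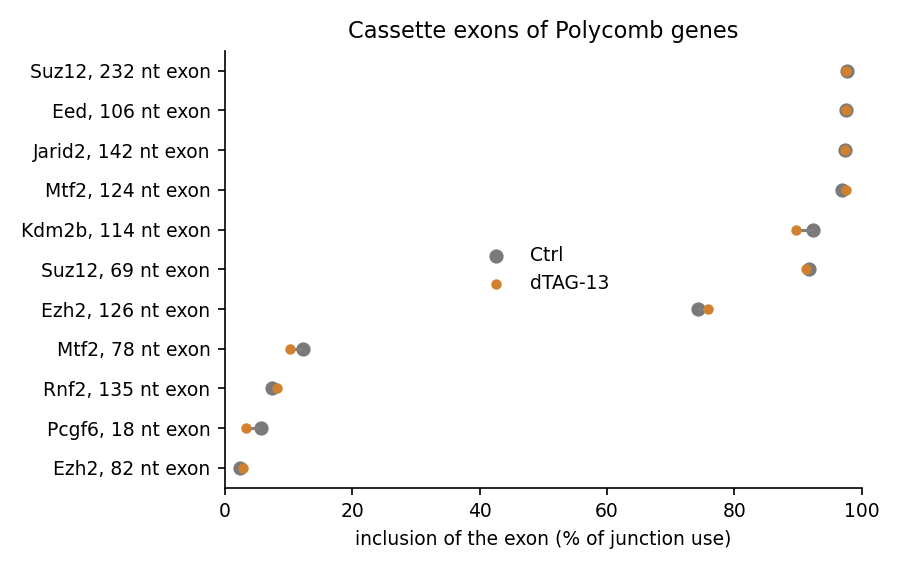
Inclusion of the 11 cassette exons of Polycomb genes (x axis, percent of junction use) in Ctrl (grey) and dTAG (orange), 1 row per exon, labelled with gene and exon length. Exons lie near either end of the axis except the 126-nt Ezh2 exon, at 74.2% and 75.8%.

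Where 2 sites of 1 kind competed, the more used site in Ctrl had the higher score in 1 of 5 Polycomb pairs of 5′ splice sites, beside 60.8% of 1613 such pairs in all tested clusters. These 5 pairs are few, and the shares were not tested against each other. They include the *Ezh2* pair whose order was not resolved and the *Mtf2* pair with close scores. The *Kdm2b* sites lay 401 nt apart, and no single annotated exon spans them. For 3′ splice sites it was 5 of 6, beside 65.3% of 1828. The *Suz12* pair at p = 0.0237 in the chi-square test was the 1 exception among the 3′ splice sites.

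METTL3 often methylates the adenosine of GGACT (as DNA letters), a common form of the m6A motif, so these letters were counted on the transcribed strand. Within 500 nt of the 5′ splice sites, at least 1 GGACT was found in 19 of 28 Polycomb clusters (67.9%), beside 72.5% of all tested clusters. The count was 0.852 per kb in Polycomb clusters and 0.927 per kb in all. The *Jarid2* first introns had 4, the *Ezh2* pair 27 nt apart had 2, and the *Suz12* pair had 1. Within the alternative part itself, 3 lay in the 1157 nt between *Jarid2* sites 1 and 5, 1 in the 27 nt of *Ezh2* and 0 in the 108 nt of *Suz12*. Of all tested sets of alternative 5′ or 3′ splice sites, 28.1% held GGACT in that part, whose median length was 69 nt. The 1157 nt of *Jarid2* are far longer, so they cannot be read beside that share. No annotated exon that ends at site 5 spans them. A match of letters is not a measured methylation site.

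Further Polycomb genes were read from a list of 50 symbols of PRC2, PRC1, PR-DUB and the H3K27 demethylases, of which 22 had a tested cluster. Of their 59 clusters, 1 was at p of at most 0.05 (1.69%, beside 6.84% of all), and it also had an adjusted p under 0.05. It lies in *Hcfc1*, which encodes a partner of the deubiquitinase BAP1, on chrX. Its annotated 132-nt intron (73949065 to 73949198) had a PSI of 1.00 in Ctrl and 0.882 in dTAG. The competing unannotated intron, from a 5′ splice site 1155 nt upstream (73950353), was fitted near 0 in Ctrl and at 0.118 in dTAG, so its use rose (adjusted p = 5.65e-05 in the chi-square test). No fold is given, since the Ctrl value is near 0.

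The next largest differences in that list did not reach p of 0.05. The skipping of a 94-nt exon of *Asxl2*, a cofactor of BAP1, had a PSI of 0.472 in Ctrl and 0.590 in dTAG (chi-square p = 0.0835). Both junctions of that exon, which is annotated only in transcripts marked for nonsense-mediated decay, had the lower PSI in dTAG. A second *Asxl2* intron had 0.632 and 0.734 (chi-square p = 0.106). The near 3′ splice site of an intron of *Lcor*, whose locus also encodes a PRC2-associated protein, had 0.531 and 0.429 (chi-square p = 0.152), and the longest of 3 alternative first introns of *Bcor*, a subunit of a variant PRC1, had 0.442 and 0.355 (chi-square p = 0.287). The median largest absolute deltaPSI in the list was 0.0251. In a comparison list of 28 heterochromatin and DNA methylation genes, 25 were tested, with 11 of 62 clusters at p of at most 0.05 (17.7%, beside 6.84% of all), 0 at an adjusted p under 0.05 and a median of 0.0215. The lists were not tested against each other.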

How the data were processed

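The authors aligned the 4sU-seq reads of the 12 samples to mm10 with STAR 2.5.2b, kept unique alignments, and passed split reads to LeafCutter, which pooled both clones in 1 test. Of the deposited tables, 1 holds for each cluster the log-likelihood ratio score, its degrees of freedom and its p-value. The other holds for each intron the fitted PSI of each group as a fraction, and columns of the authors' own differences and effects, which were not used. Clusters with too few split reads were not tested, which limits the description to clusters with enough of them. Single introns of a tested cluster can still be of low use, as 32 of the 96 Polycomb introns had a PSI under 0.05 in both groups.

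Here the p-value was recomputed as the chi-square tail of 2 times the score at the deposited degrees of freedom, and adjusted by Benjamini-Hochberg over the 7263 tested clusters. It differed from the deposited p-value by at most 7.63e-15. The test itself is thus the authors' LeafCutter fit, since no values per sample were at hand. The 95% intervals of the 10 clusters with 2 introns and a log-likelihood ratio of at least 0.05 are test-based: the log odds ratio of use was multiplied by 1 minus and 1 plus the normal quantile over the root of the likelihood-ratio statistic, and carried to deltaPSI at the Ctrl value. They are approximate. These steps were run on simulated clusters of 2 introns with a single draw of reads per group. That simulation held no replicates, clones or extra spread between samples, so it cannot show how the intervals behave in these data.

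Deposited positions are the last base of the exon before and the first base of the exon after an intron on the + strand, counted from 1: 99.9% of introns had a splice motif directly inside them. Introns were matched to GENCODE vM21 by both positions, and sequences were read from the GRCm38 genome of RefSeq. Inclusion of a cassette exon is the mean PSI of its 2 junctions over that mean plus the PSI of skipping. Frames were read from each protein-coding transcript that holds the base before the alternative part in its coding sequence.

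The members and all gene lists were chosen with earlier results of these data known. All 10 members were to be described. Of the other Polycomb genes, those at p of at most 0.05 and the clusters with the largest deltaPSI were to be named. Software was Python 3.11.15 with numpy 2.4.6, pandas 2.3.3, scipy 1.17.1, pysam 0.24.0 and matplotlib 3.10.9. Reads and m6A maps were not analysed here.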

Additional observations from a re-analysis of the deposited data

How the results depend on the processing

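No Polycomb cluster had an adjusted p under 0.05 in LeafCutter's chi-square test with the Benjamini-Yekutieli adjustment, with a threshold of 0.2, or without clusters of several gene names, while 29, 115 and 50 of all tested clusters passed. The first 2 of these could not add a Polycomb cluster. The smallest adjusted p was 0.565, and the Benjamini-Yekutieli adjustment only raises it. At p of at most 0.05 there were 2 Polycomb clusters, beside 497 of the 7263 tested, and 2 without clusters of several names, beside 480. At p of at most 0.01 there were 0, beside 194 of all tested. When a deltaPSI of at least 0.05 was also required there was 1 (*Jarid2*), beside 327 of all tested. The Polycomb counts followed from values given above, as the smallest p was 0.0237 and both clusters carried 1 gene name. The median largest absolute deltaPSI was 0.0160, and 0.0302 with 1 cluster per gene, chosen by its smallest p. That choice favours clusters with larger differences, and no value over all tested clusters was computed for it. With introns of low use left out it was 0.0208 in the Polycomb clusters that still had a choice, 5 having none left, beside 0.0259 over all. On the log2 odds ratio scale with a pseudocount of 0.01, which has another unit, it was 0.27 in Polycomb clusters and 0.31 over all. The leading *Suz12* intron is itself one of low use, so it has no value under that setting. The signs of the leading introns of *Suz12* and *Jarid2* could not change under the alternatives that were run. The log odds ratio always has the sign of deltaPSI, and no intron of the *Jarid2* cluster was of low use. These alternatives thus say nothing about how firm the signs are. The count in further Polycomb genes was 1 at p of at most 0.01, beside 194 of all tested. It was also 1 with a deltaPSI of at least 0.05 required, beside 327. The *Hcfc1* values given above fixed both counts. The intervals of 2-intron clusters had no alternative.

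No paired analysis was possible because the tables give 1 fitted value per group and no value per sample, and for the same reason leaving out each replicate or clone was not run. Whether a single clone or library decides a value was not tested. Depth is unknown, which limits the values near 0 most.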
